A study of Mus musculus with 30 samples.

Results

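The genes described here encode the proteins of the cytosolic ribosome. They were the protein-coding mouse genes named Rpl or Rps with a number, with Rpsa and the P-stalk genes Rplp0, Rplp1 and Rplp2. The S6 kinase genes (Rps6k) and pseudogene symbols were left out. The rule took 84 of the 55573 annotated genes: 31 proteins of the small (40S) subunit, 43 of the large (60S) subunit, 3 of the P-stalk and 7 paralogs, which are related copies of a core gene. The deposited count table held 79 of them, 76 core genes and the paralogs Rpl22l1, Rpl7l1 and Rps27l, and these were tested. All came from messenger RNA sequencing of 3T3-L1, an established mouse fibroblast line able to become adipocytes. At the sub-confluent stage, on day −3 of the differentiation schedule, the preadipocytes were transfected with 50 nM of either a pool of siRNAs against Kdm5c, an X-linked gene for a demethylase of lysine 4 on histone H3, or with a scramble siRNA as the control. Collection was 24 h (day −2), 48 h (day −1) or 72 h (day 0) after that, so no group had begun induced differentiation and every group, controls included, had been through transfection. There were 5 libraries in each of the 6 groups and 30 altogether; the labels do not say whether these came from separate cultures, so every p measures only the spread between libraries.

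Ribosomal proteins are made in near-equal numbers and are joined to ribosomal RNA in the nucleolus, and their mRNAs are among the most abundant in growing cells. Many of these mRNAs begin with a C followed by a run of pyrimidines, the terminal oligopyrimidine or TOP start, through which the kinase mTOR and the RNA-binding protein Larp1 control their translation and storage. In preadipocytes, growth slows as the culture fills the dish, and ribosome production is known to follow growth.

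Library totals ran from 25217905 to 33725717 reads. Read counts scaled to the library total (CPM) are given as deposited; log2 fold changes and their SE come from a quasi-likelihood model in edgeR with TMM scaling over all 12016 genes of the count table, and calls were made where the p adjusted over those 12016 genes by Benjamini-Hochberg was below 0.05. The common coefficient of variation between libraries of a group was 0.0367. Kdm5c itself was at 16.3%, 18.9% and 25.2% of its scramble level on day −2, day −1 and day 0. The 9 fibroblast marker genes summed to between 23255 and 37879 CPM per library, while the 6 markers of mature adipocytes summed to 9.73 to 35.5 CPM, with Cfd at 0 in every library. Fabp4, with a mean of 21.6 CPM, made up nearly all of the adipocyte sum. Col1a1 and Col1a2, with means of 10915 and 12579 CPM, made up most of the fibroblast sum, while Cd34 had 0.51 CPM. Differences in these 2 sums, here and below, are therefore mainly those of these genes. The leukocyte markers summed to 2.41 to 9.12 CPM with Adgre1 at 0, and the epithelial and endothelial markers to less than 1 CPM, with Epcam at 0. A lower CPM in such bulk samples cannot tell fewer expressing cells from less RNA per cell.

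All members together took 3.21% ± 0.058 (SD, n = 5) of all reads in scramble cells on day −2, with the libraries at 3.29, 3.19, 3.13, 3.21 and 3.22%. The share was 2.99% ± 0.058 on day −1 and 2.76% ± 0.034 on day 0 under scramble. Under Kdm5c siRNA it was 3.08% ± 0.074, 2.89% ± 0.043 and 2.60% ± 0.055 on the same days. The Kdm5c siRNA mean lay 3.98%, 3.50% and 6.09% below the scramble mean of its day. On day 0 the 5 Kdm5c siRNA libraries, at 2.59, 2.69, 2.57, 2.57 and 2.56%, all lay below the lowest scramble library at 2.72%, whereas the groups overlapped on day −2 and day −1. The larger step was with time: from day −2 to day 0 the share under scramble went down by 13.9% of its starting value, with no overlap between those libraries. These shares are descriptions and were not tested.

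**Figure D1:**
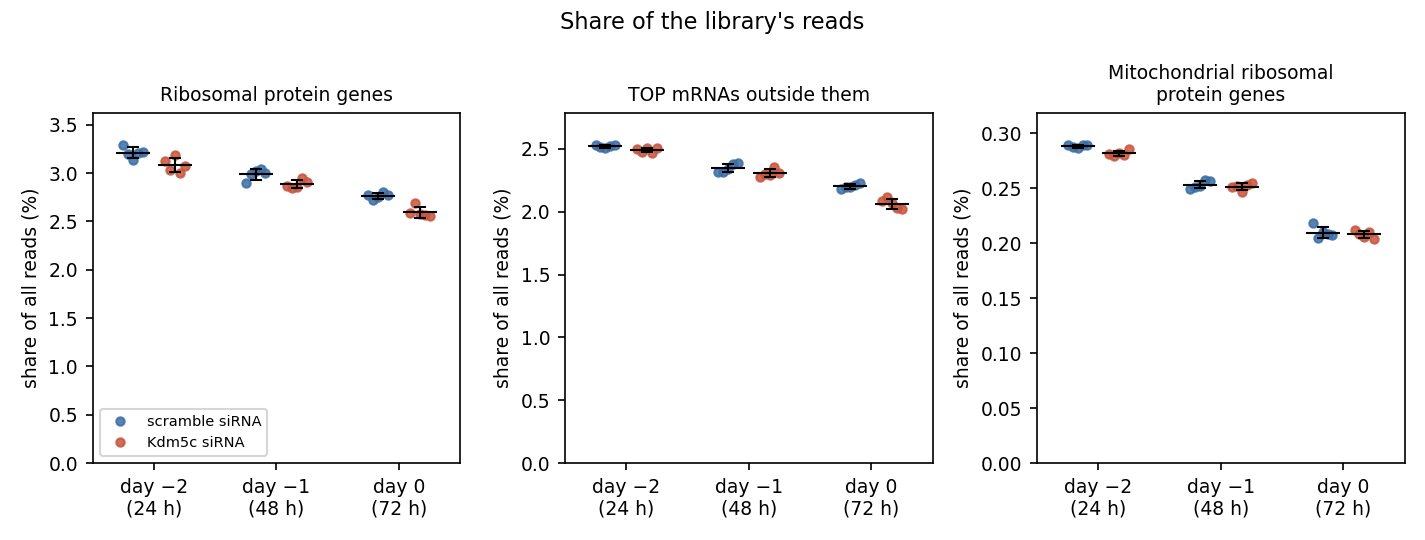
Share of each library's reads (y axis, %) on the ribosomal protein genes, on 22 other TOP mRNAs and on the genes for mitochondrial ribosomal proteins, by day (x axis) and siRNA; points are libraries, bars the mean ± SD (n = 5). The ribosomal protein share went from a mean of 3.21% to 2.76% under scramble and from 3.08% to 2.60% under Kdm5c siRNA.

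Compared per kilobase of a representative transcript, the 79 tested genes had a median level of 404 CPM per kb over all libraries. The highest were Rpl32, a large-subunit protein, at 1548 CPM per kb, and the stalk proteins Rplp1 and Rplp0 at 1534 and 1409. Rplp0 anchors the P-stalk, the flexible arm that recruits elongation factors, and Rplp1 pairs with Rplp2 on it. The lowest tested genes were Rps10, of the small subunit's head, at 7.25 CPM per kb, Rpl13a at 38.5 and the Rpl7 relative Rpl7l1 at 41.7. Short reads from a ribosomal protein mRNA can match its processed copies in the genome, and the sources used here do not give how the authors counted such reads; the part of this in the levels was not tested, and values of genes with copies are uncertain to that extent. Of the tested genes, 60 have at least 1 annotated pseudogene copy of the same name, and a median of 47.7% of the 50-base stretches of their transcript occur in no transcript of another annotated gene, with the lowest share, 1.35%, in Rps27. Across the 79 genes the correlation of this uniqueness with the level per kb was weak (Pearson r = −0.036, across genes, which are not independent replicates). The long annotated transcripts chosen for Rps20 and Rps15a, of 3706 and 5130 bases, lower their values per kb.

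The remaining 5 members were outside the count table and were not tested. Rpl24, a core large-subunit protein, had a mean of 0.54 CPM and the paralog Rpl36al 1.18 CPM. The heart and muscle paralog Rpl3l had 0.021 CPM, and the testis paralogs Rpl10l and Rpl39l had no read in any library, which allows at most 0.119 CPM in the shallowest library, a limit that covers counting error only.

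On day −2, 24 h after transfection, 28 of the 79 tested members fell under Kdm5c siRNA, 0 rose and 51 did not pass the test. That is 35.4% of the members, beside 11.9% of all tested genes called lower and 11.3% called higher. The changes were small: the median of the 79 log2 fold changes was −0.06, against 0.00 over all genes, and 9 of the 79 were lower and 0 higher without overlap between libraries (background 8.75% and 7.37%). The called members included 9 of 31 small-subunit genes, 17 of 42 large-subunit genes, Rplp0 and Rpl22l1. The count depended on single libraries: it was 12 without scramble replicate 1, 15 without Kdm5c siRNA replicate 2, 13 without Kdm5c siRNA replicate 4 and 12 without Kdm5c siRNA replicate 5. Several called members lay close together on this day, such as Rps21 at −0.15 (SE 0.036), Rpl3 at −0.12 (SE 0.031), Rps14 at −0.12 (SE 0.033), Rpl27a at −0.11 (SE 0.026) and Rps9 at −0.10 (SE 0.020). The calls of Rpl39 (−0.12, SE 0.039) and Rpl35a (−0.11, SE 0.039) were lost without scramble replicate 1 or 5, or Kdm5c siRNA replicate 2, 4 or 5; that of Rpl35a also without scramble replicate 2 or Kdm5c siRNA replicate 1, and that of Rps14 without Kdm5c siRNA replicate 5. With only the compared libraries fitted, the adjusted p was 0.051 for Rpl39 and 0.0849 for Rpl35a, and with the replicate block it was 0.0682 for Rpl35a. The summed fibroblast markers of this day ran from 24558 to 26182 CPM under Kdm5c siRNA and from 23255 to 24266 CPM under scramble, and their part in the result was not tested.

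Rpl27, a large-subunit protein gene on chromosome 11 (101442298 to 101445529, plus strand), fell to 80.9%, 84.9% and 84.4% of scramble on the 3 days (log2 −0.31, −0.24 and −0.24; SE 0.032, 0.034 and 0.035; adjusted p = 8.4e-09, 1.14e-06 and 1.26e-06). Its libraries on day −2 held 136.5, 130.7, 128.4, 131.9 and 131.9 CPM under scramble and 109.6, 108.1, 111.7, 99.5 and 102.7 CPM under Kdm5c siRNA. By day 0 these had become 75.6, 68.4, 76.7, 71.6 and 71.3 CPM against 58.4, 64.2, 61.9, 62.7 and 59.1 CPM. The siRNA groups of a day never overlapped, and the scramble libraries of day 0 lay below the Kdm5c siRNA libraries of day −2. Rpl22l1, on chromosome 3 (28805436 to 28807424, plus strand), is a paralog that can take the place of Rpl22 in the large subunit. It fell to 82.6%, 84.1% and 83.8% of scramble (log2 −0.28, −0.25 and −0.25; SE 0.051, 0.053 and 0.054; adjusted p = 1.22e-04, 3.1e-04 and 3.21e-04). Its libraries on day −2 were at 44.8, 39.96, 38.2, 39.2 and 41.4 CPM under scramble and at 36.2, 33.5, 37.8, 30.7 and 29.6 CPM under Kdm5c siRNA. The gap on that day was narrow, between 37.8 and 38.2 CPM, and it widened to 30.3 against 27.6 CPM on day 0. Rpl22, its core counterpart, had changes of −0.09, −0.06 and −0.10, of which the first and the last passed the test; it was chosen for this comparison after its values were seen.

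**Figure D2:**
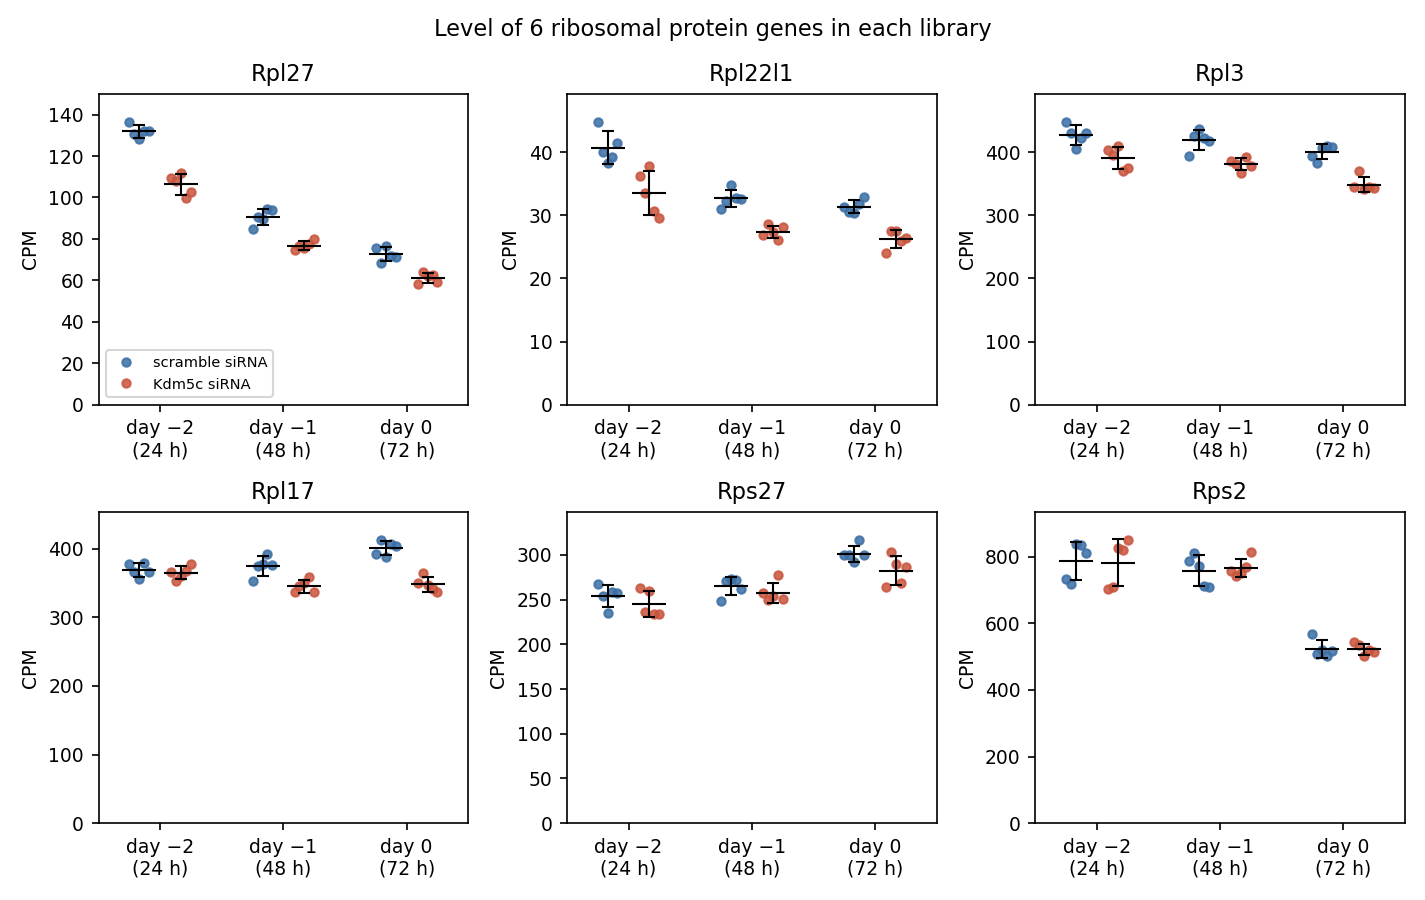
CPM (y axis, from 0) of 6 members by day (x axis) and siRNA; points are the 5 libraries of a group and bars the mean ± SD. Rpl27 and Rpl22l1 were lower under Kdm5c siRNA on every day without overlap, Rpl3 on day −1 and day 0, Rpl17 came apart by day 0, Rps27 went up with time and Rps2 dropped between day −1 and day 0 under both siRNAs.

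On day −1, 21 members fell, 1 rose and 57 did not pass the test. The share that fell, 26.6%, stood beside 16.8% of all genes, and the share that rose, 1.27%, beside 18.8%. Of the members, 14 were lower and 0 higher without overlap between libraries (background 11% and 11.2%), and the median was −0.05. Beside Rpl22l1 and Rpl27 these included Rpl21 (−0.14, SE 0.028), Rpl27a (−0.14, SE 0.026), Rpl3 (−0.14, SE 0.031), Rpl17 (−0.12, SE 0.027), Rps9 (−0.11, SE 0.020), Rps3a1 (−0.11, SE 0.024) and Rps21 (−0.11, SE 0.036). Rpl3 reaches into the peptidyl transferase centre, where peptide bonds form, and Rpl17 lines the tunnel through which the new protein leaves. The call of Rps21 was lost without scramble replicate 3 or Kdm5c siRNA replicate 2. The member that rose was Rpl7l1, a nuclear relative of Rpl7 found in precursors of the large subunit, from 101.4 ± 3.28 to 108.0 ± 1.80 CPM (SD, n = 5; log2 0.09, SE 0.028, adjusted p = 0.00857), with a small overlap between the libraries. The summed leukocyte markers of day −1 ran from 4.12 to 5.07 CPM under Kdm5c siRNA and from 3.29 to 4.09 CPM under scramble, and their part in the result was not tested.

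On day 0, 45 members fell, 0 rose and 34 did not pass the test. The share that fell was 57.0%, beside 16.2% of all genes called lower and 19.3% called higher. The median was −0.09, and 32 members were lower and 0 higher with no overlap (background 10.7% and 11%). By subunit, 13 of 31 small-subunit genes fell with a median of −0.07, 29 of 42 large-subunit genes with a median of −0.10, and Rplp0 and Rplp2 of the stalk. Beside Rpl22l1 and Rpl27 those that fell included Rpl17 (−0.20, SE 0.027), Rpl3 (−0.20, SE 0.031), Rpl13a (−0.18, SE 0.034), Rpl13 (−0.17, SE 0.060), Rpl27a (−0.17, SE 0.026), Rpl19 (−0.16, SE 0.024) and Rps3a1 (−0.15, SE 0.024). The libraries of Rpl3 held 394.8, 382.9, 407.03, 410.2 and 408.8 CPM under scramble and 344.7, 369.8, 341.3, 345.1 and 343.0 CPM under Kdm5c siRNA, and the groups did not overlap. Of the 50-base stretches of Rpl3, 14.4% are unique. The change of Rpl13 rested on 1 library: scramble replicate 1 held 461.1 CPM and the other scramble libraries 333.1 to 393.5 CPM, and without it the change was −0.09 (adjusted p = 0.173). On this day the summed adipocyte markers ran from 28.7 to 35.5 CPM under Kdm5c siRNA and from 21.97 to 28.8 CPM under scramble, and the summed leukocyte markers from 3.68 to 5.53 and from 2.41 to 3.31 CPM; their part in the result was not tested. The call of Rpl13 was also lost without scramble replicate 4 (adjusted p = 0.0695), without Kdm5c siRNA replicate 5 (adjusted p = 0.0898) or with only the compared libraries (adjusted p = 0.0526).

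**Figure D3:**
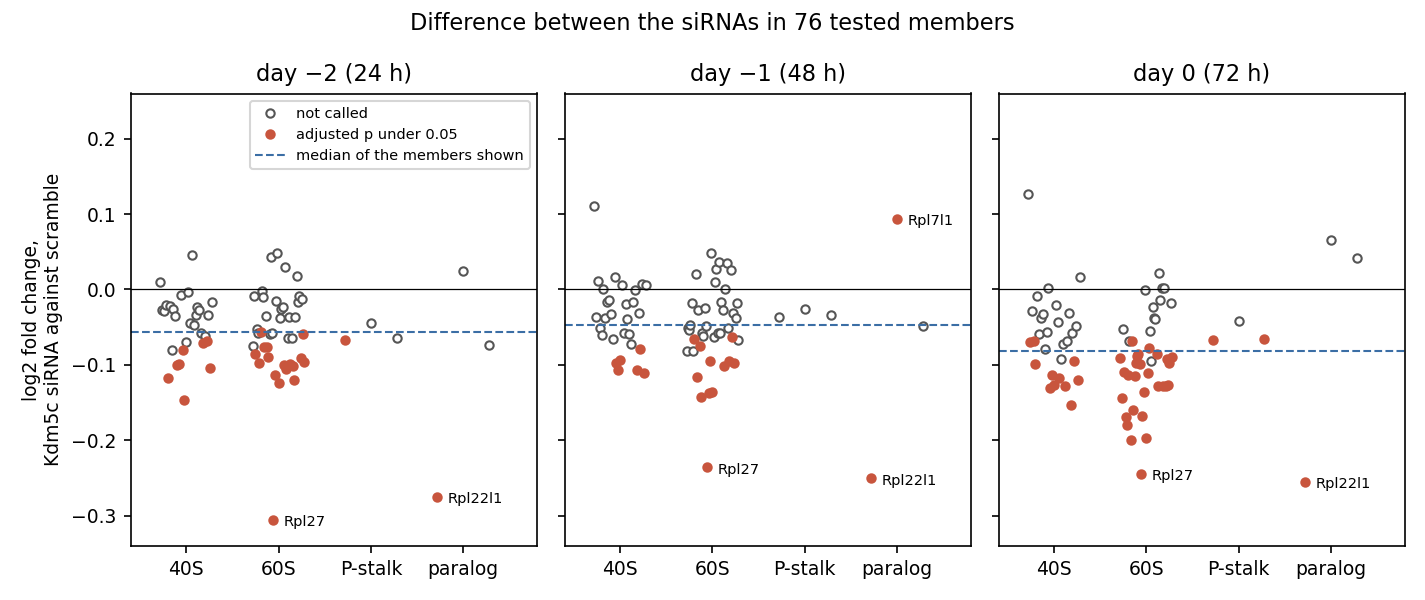
Log2 fold change of Kdm5c siRNA against scramble (y axis) for 76 of the 79 tested members by class (x axis) on each day; filled points passed an adjusted p of 0.05 and the dashed line is the median of the points. Most points lie between 0 and −0.2, with Rpl27 and Rpl22l1 below the others shown on each day.

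The 3 days share no libraries. Over them, 14 of the 79 members were called lower on every day, beside 5% of all genes. They included Rps6, Rps9, Rps20, Rps21 and Rps3a1 of the small subunit, and Rpl3, Rpl7, Rpl14, Rpl21, Rpl27, Rpl27a, Rpl37 and Rpl22l1 of the large one. Rps6 is the small-subunit protein that the S6 kinases phosphorylate. In all, 53 members were called lower on at least 1 day (background 26.9%) and 26 on none, and 59 had a change below 0 on all 3 days (background 26.7%). All 21 members lower on day −1 were also lower on day 0, which is 46.7% of the 45; day −2 and day 0 shared 20, which is 71.4% of the 28 and 44.4% of the 45. Over 76 members, the changes on day −1 and day 0 ran together (Pearson r = 0.835), and r was 0.794 without Rpl27 and Rpl22l1. For day −2 and day 0 r was 0.489 over the 76 and 0.299 without that pair, which was taken out after its values were seen. These are correlations across genes, which are not independent replicates, and they are given as a description.

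The 26 members called lower on no day included, chosen after their values were seen, Rps2, Rps10, Rps12, Rpl29 and Rpl41. Rps2, a protein near the channel where mRNA enters, had 787.8 ± 57.0 CPM under scramble and 781.5 ± 70.2 CPM under Kdm5c siRNA on day −2, and on day 0 it had 522.6 ± 26.5 and 522.1 ± 16.6 CPM. The day −2 libraries of Rps2 fell into a low pair, replicates 1 and 2 at 733.9 and 719.4 CPM under scramble and at 701.8 and 709.2 CPM under Kdm5c siRNA, and the other replicates at 811.98 to 838.7 and 821.3 to 849.2 CPM. Rpl29, which helps to join the subunits, had log2 changes of 0.05, 0.05 and 0.00 on the 3 days. The change of Rpsa, the small-subunit protein also known as the laminin receptor, was −0.02, 0.01 and 0.02, with an SE of 0.019 each day. A p that misses the threshold does not show that these levels were equal.

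The size of the siRNA effect differed between day 0 and day −2 in 11 members, all more negative on day 0. This is 13.9% of the 79, beside 6.18% of all genes with a more negative and 9.95% with a more positive effect. They included Rpl17 (difference −0.19, SE 0.038, edgeR adjusted p = 5.59e-04), Rps26 (−0.16, SE 0.034, adjusted p = 9e-04), Rpl10a (−0.14), Rpl23a (−0.13), Rpl19 (−0.12), Rpl28 (−0.12), Rpl5 (−0.11), Rpl4 (−0.09), Rpl7a (−0.09) and Rpl6 (−0.08). Only Rps26 is of the small subunit, where it sits near the exit of the mRNA channel. Rpl5 joins the large subunit together with Rpl11 and the 5S rRNA, and Rpl10a forms the L1 stalk. None of the 11 had been called on day −2, where their changes ran from −0.05 to 0.05, and all 11 were called lower on day 0. Rpl4 was nevertheless lower without overlap between libraries on all 3 days, day −2 included. The 11 were picked by a difference that uses these same libraries, so their weaker effect on day −2 partly follows from that choice.

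The libraries of Rpl17 show the course. On day −2 they held 378.3, 366.1, 355.3, 379.9 and 365.8 CPM under scramble and 366.7, 352.8, 360.8, 368.2 and 377.9 CPM under Kdm5c siRNA, which overlap almost fully. On day 0 the scramble libraries held 391.6, 412.3, 388.4, 406.4 and 403.7 CPM and the Kdm5c siRNA libraries 349.5, 364.2, 347.7, 341.7 and 336.7 CPM, and every one of the latter was below every one of the former. Rpl17 had gone up under scramble (log2 0.08, SE 0.027, day 0 against day −2) and down under Kdm5c siRNA (−0.11, SE 0.027). It shares its transcript widely: 11 annotated pseudogenes carry its name and 21.3% of its 50-base stretches are unique. Rps26 had a lower mean on day 0 than on day −2 under both siRNAs, at 577.5 ± 6.03 and 594.3 ± 25.8 CPM under scramble and Kdm5c siRNA on day −2 and 539.4 ± 8.32 and 496.1 ± 17.9 CPM on day 0 (SD, n = 5).

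From day −2 to day 0, the scramble cells alone showed far larger movements: 68 of the 79 members fell, 7 rose and 4 did not pass the test, with a median of −0.25. Beside this, 43.6% of all genes fell and 44.6% rose over the same time, with a median near 0. Without overlap between libraries, 60 members were lower (background 37.6%) and 7 higher (background 42.7%). All 31 small-subunit genes were called, 28 lower and 3 higher; of the 42 large-subunit genes 34 fell and 4 rose, and the 3 stalk genes fell by 0.24 to 0.29 on the log2 scale. By step, between day −2 and day −1 70 members fell and 0 rose (median −0.18; background 39.4% and 39.5%), 42 lower and 1 higher without overlap (background 27.3% and 39.1%), while between day −1 and day 0 43 fell and 8 rose (median −0.07; background 37.9% and 36.8%), 40 lower and 6 higher without overlap (background 34.1% and 26.6%). These comparisons share their day −1 libraries. The sizes of the steps depended on the scaling: with library totals only, 55 fell and 4 rose in the first step and 51 fell and 8 rose in the next, with a median of −0.10 in each, and the read share fell by 6.83% and then fell by 7.55%. The summed fibroblast markers ran from 23255 to 24266 CPM on day −2 and from 34262 to 37879 CPM on day 0 under scramble. The adipocyte markers ran from 10.3 to 12.7 and from 21.97 to 28.8 CPM, and the leukocyte markers from 4.82 to 7.31 and from 2.41 to 3.31 CPM. Their part in the change was not tested.

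The deepest fall was that of Rps10, from 8.54 ± 0.770 to 4.63 ± 0.634 CPM (log2 −0.92, SE 0.078, adjusted p = 5.74e-13), a low count for a core gene, with 4 pseudogene copies. The libraries held 8.64, 7.86, 9.496, 9.02 and 7.68 CPM on day −2 and 3.81, 4.34, 5.26, 5.27 and 4.46 CPM on day 0, without overlap. Rpl27 followed with −0.90 (SE 0.033) and Rpl7l1 with −0.86 (SE 0.028), at 139.8 ± 4.07 CPM on day −2 and 78.9 ± 3.39 CPM on day 0. Next were Rpl7a (−0.66), Rpl8 (−0.65), Rps2 (−0.63), Rpl29 (−0.60), Rpl36 (−0.59), Rps27l (−0.56) and Rpl18 (−0.55), each with an SE of at most 0.048. Rpl8 lies close to the peptidyl transferase centre, and its transcript is mostly unique (92.1% of 50-base stretches); it went from 1148 ± 10.6 to 754.0 ± 15.5 CPM. Rps2 moved late, with a change of −0.13 (SE 0.048) between day −2 and day −1 and of −0.50 (SE 0.048) between day −1 and day 0. Rpsa showed the same order, with −0.01 followed by −0.23 (SE 0.019).

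Against this trend Rps28 (0.22, SE 0.040), Rps27 (0.21, SE 0.040) and Rps20 (0.18, SE 0.022) rose from day −2 to day 0 under scramble. Rps28 sits at the mRNA exit, Rps27 is a zinc-finger protein of the small subunit, and Rps20 belongs to the head of the small subunit. The scramble libraries of Rps20 held 510.3, 491.0, 477.2, 485.0 and 485.3 CPM on day −2, and 567.4, 561.0, 563.0, 580.4 and 568.6 CPM on day 0, wholly above the former. Rps27 had 267.8, 253.7, 234.6, 258.5 and 257.0 CPM on day −2 and 300.1, 299.8, 291.9, 316.3 and 299.4 CPM on day 0, again without overlap, although almost none of its 50-base stretches are its own. Rpl23a (0.09), Rpl28 (0.09) and Rpl17 (0.08) also rose. Their calls were lost when every gene with a read was fitted without a filter, where the values were 0.05, 0.05 and 0.04.

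Under Kdm5c siRNA the course from day −2 to day 0 was similar: 70 members fell, 3 rose and 6 did not pass the test (background 43.6% and 43.8%), with a median of −0.29. Without overlap, 61 were lower and 2 higher (background 36.7% and 41.4%). The summed fibroblast markers under Kdm5c siRNA ran from 24558 to 26182 CPM on day −2 and from 32467 to 36621 CPM on day 0. The adipocyte markers ran from 9.73 to 12.96 and from 28.7 to 35.5 CPM, and the leukocyte markers from 6.37 to 9.12 and from 3.68 to 5.53 CPM; their part was not tested. The 3 that rose were Rps27 (0.16), Rps20 (0.13) and Rps28 (0.11), with an SE of 0.040, 0.022 and 0.040. The leading falls were in Rpl27 (−0.84), Rpl7l1 (−0.82), Rps10 (−0.81), Rpl7a (−0.74), Rpl29 (−0.65), Rps2 (−0.62), Rpl13 (−0.61) and Rpl8 (−0.60). Across 76 members the changes under the 2 siRNAs, which share no library, ran closely together (Pearson r = 0.965).

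**Figure D4:**
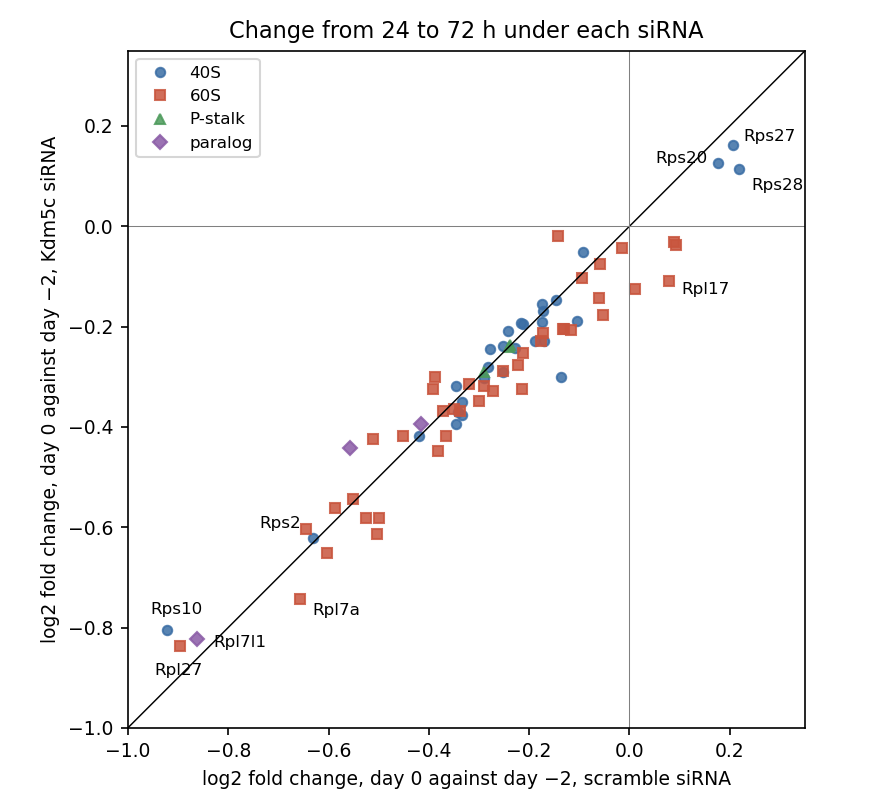
Log2 fold change from day −2 to day 0 under scramble (x axis) and under Kdm5c siRNA (y axis) for 76 of the 79 tested members; the diagonal marks equal change and symbols mark the class. The genes follow the diagonal (r = 0.965), from Rps10 and Rpl27 at the lower left to Rps27, Rps28 and Rps20 at the upper right.

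The members with a special build were followed one by one. The stalk genes had similar values under Kdm5c siRNA: Rplp0 had −0.07 (called), −0.04 and −0.07 (called), Rplp1 had −0.04, −0.03 and −0.04, none called, and Rplp2 had −0.06, −0.03 and −0.07, of which the last was called. Rplp0 held 2104 ± 38.3 CPM under scramble and 2003 ± 77.3 CPM under Kdm5c siRNA on day −2. Rps27a, made as a fusion to ubiquitin, had −0.03, −0.06 and −0.07, none called. Fau, which encodes a ubiquitin-like fusion and is not in the member list, had −0.05, −0.07 (called) and −0.07 (called). Rps27l, a paralog of Rps27 known as a p53 target, had −0.07, −0.05 and 0.04, none called, and fell from 90.5 ± 4.11 to 63.1 ± 2.55 CPM with time under scramble, while Rps27 rose. Rps4x, the X-linked small-subunit gene, had −0.06, −0.03 and −0.06, none called.

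The promoters of 64 of the 84 members were matched by symbol in the RefSeq table for GRCm38.p6, which gives 250 bases before and 50 bases after each annotated start. The base at the annotated start was a C in 32.8% of the members and in 16.2% of all 27025 promoters. A run of 5 or more pyrimidines beginning with a C at the start itself was present in 18.8% and 2.49%, and a run of 5 or more beginning with C within 10 bases of the start in 56.2% and 30.8%. Searched on both strands, CCGGAAG, a core that ETS-family factors recognise, was in 39.1% of the members against 9.12% of all promoters. AAGATGGC, the core of the YY1 motif, was in 7.81% against 2.88%, and TATAAA, the TATA box, in 9.38% against 14.2%. The motifs were chosen after the values of the members were known, and a match is a description of the letters only.

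The 30 bases from 10 before to 20 from the annotated start are shown for 5 of the members described above: Rpl27 and Rpl22l1, which were lower under Kdm5c siRNA on every day, Rps10, which fell with time, and Rps28 and Rps27, which rose. They are written 5′ to 3′ on the gene's strand, and capitals mark an unbroken run of pyrimidines that begins with C at the annotated start itself.
Rpl27, chr11:101442235-101442264, plus strand: ctgttcctgtCTgctgctcgtgctgctaat
Rpl22l1, chr3:28805498-28805527, plus strand: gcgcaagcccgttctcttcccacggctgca
Rps10, chr17:27635225-27635254, minus strand: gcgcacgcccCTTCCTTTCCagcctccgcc
Rps28, chr17:33824543-33824572, minus strand: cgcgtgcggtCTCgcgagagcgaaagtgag
Rps27, chr3:90213629-90213658, minus strand: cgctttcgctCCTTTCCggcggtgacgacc
Rps10 has a run of 10 and Rps27 one of 7 pyrimidines at the start, although 1 fell and the other rose with time. Rpl27 has a run of 2 and Rps28 one of 3, and Rpl22l1 starts with a g, with a run of 8 that begins with a C within the window. The starts annotated in RefSeq and in GENCODE differ for some of these genes. The Rpl27 window lies wholly before its GENCODE gene, which begins at 101442298. The Rpl22l1 window lies inside its gene, which begins at 28805436. The Rps10 window also lies inside its gene, which begins at 27636669 on the minus strand. The runs given here hold for the RefSeq starts only. Real starts can lie away from the annotated one, and no measurement of starts or of translation was used here.

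Properties of the transcript were set against the siRNA changes of the 79 members as a description. On the 3 days r was −0.011, 0.085 and 0.19 for the unique share of the transcript, 0.036, 0.006 and −0.001 for its length and 0.128, 0.247 and 0.165 for its GC content. It was 0.128, 0.034 and −0.001 for the mean CPM, and all of these Pearson correlations were weak. By rank (Spearman) the largest were 0.346 for GC content on day −1 and −0.221 for length on day 0. Of the 26 members with more than 60% unique stretches 15 fell on day 0 (median −0.08), and of the 53 others 30 fell (median −0.09); the limit of 60% was chosen after the data were seen. The 50 pseudogene copies with a row in the count table gave few calls on day 0, 3 lower and 0 higher, with a median of 0.00. On day −2 and day −1 they gave 3 and 1 lower and 0 and 1 higher, with medians of −0.08 and −0.03. Many copies had few reads, such as Rps12-ps10 at 1.12 CPM, so changes as small as those of the members could be missed. The summed read share of the copies changed by −5.198%, −0.975% and −5.374% on the 3 days, beside −3.982%, −3.502% and −6.088% for the members. Rps2-ps13 and Rpl3-ps1, with means of 259.4 and 114.8 CPM, were the largest parts of the copy sum. Whether the copies moved with the members was not tested.

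Lists of related genes were set beside the members. Among all tested genes, 11.9%, 16.8% and 16.2% were called lower on the 3 days and 11.3%, 18.8% and 19.3% higher. Of 22 other mRNAs known to carry a TOP start, 5, 9 and 13 fell on the 3 days and 0, 3 and 1 rose, with medians of −0.03, −0.04 and −0.08. They included the elongation factor subunits Eef1b2 (−0.14, −0.14 and −0.12, all called) and Eef1g (−0.13, −0.11 and −0.12, all called), the initiation factor Eif4b (−0.20 on day 0) and Tpt1 (−0.08, −0.11 and −0.19, all called). The 77 tested genes for mitochondrial ribosomal proteins differed from this: 10, 8 and 10 fell and 1, 8 and 3 rose, with medians of −0.02, 0.01 and −0.01. Of 15 assembly and transport factors 0 fell on any day and 1, 8 and 5 rose, and of 8 genes for RNA polymerase I and its factors 0, 0 and 1 fell and 1, 4 and 3 rose. These lists and the members were not tested against each other.

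In the list of 15 genes of the initiation complex eIF4F and its regulators, 4, 4 and 3 fell and 2, 5 and 7 rose. The medians on the 3 days were 0.02, 0.02 and 0.04. Those that fell under Kdm5c siRNA included both S6 kinase genes, whose products phosphorylate Rps6. Rps6kb2 had −0.48, −0.52 and −0.20 (SE 0.036, 0.034 and 0.033), and Rps6kb1 had −0.33, −0.32 and −0.14 (SE 0.030, 0.031 and 0.031). Both effects were smaller on day 0 than on day −2 (difference 0.29, SE 0.049, and 0.19, SE 0.043; edgeR adjusted p = 9.42e-05 and 0.00261). Mtor rose by 0.12, 0.21 and 0.24 (SE 0.025, 0.025 and 0.026), and Eif4ebp2, which encodes a repressor of cap-dependent initiation, rose by 0.09 on day −2 and 0.18 on day 0. Myc, a transcription factor known to drive ribosome production, rose by 0.20, 0.40 and 0.38 (SE 0.071, 0.077 and 0.087), from 137.9 to 158.1 CPM on day −2 and from 34.9 to 45.5 CPM on day 0.

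With time under scramble, the lists had different medians, and they were not tested against each other. Between day −2 and day 0, 43.6% of all tested genes fell and 44.6% rose. From day −2 to day 0 the assembly factors all fell, 15 of 15 with a median of −1.18, led by Rrp12 (−2.07), Rrs1 (−1.75) and Bysl (−1.57). Of the RNA polymerase I list 7 of 8 fell and 1 rose, with a median of −0.81 and Polr1b at −1.71, and Myc fell by 2.02 on the log2 scale. The mitochondrial ribosomal protein genes had a median of −0.51, with 67 of 77 lower and 3 higher. The TOP list was mixed, with 15 lower, 5 higher and a median of −0.37: Eef1d (−1.18), Nap1l1 (−1.25) and Vim (−0.79) fell, while Tpt1 rose by 0.28 and Eef1a1 by 0.11. The ribosomal protein genes, for comparison, had their median at −0.25.

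**Figure D5:**
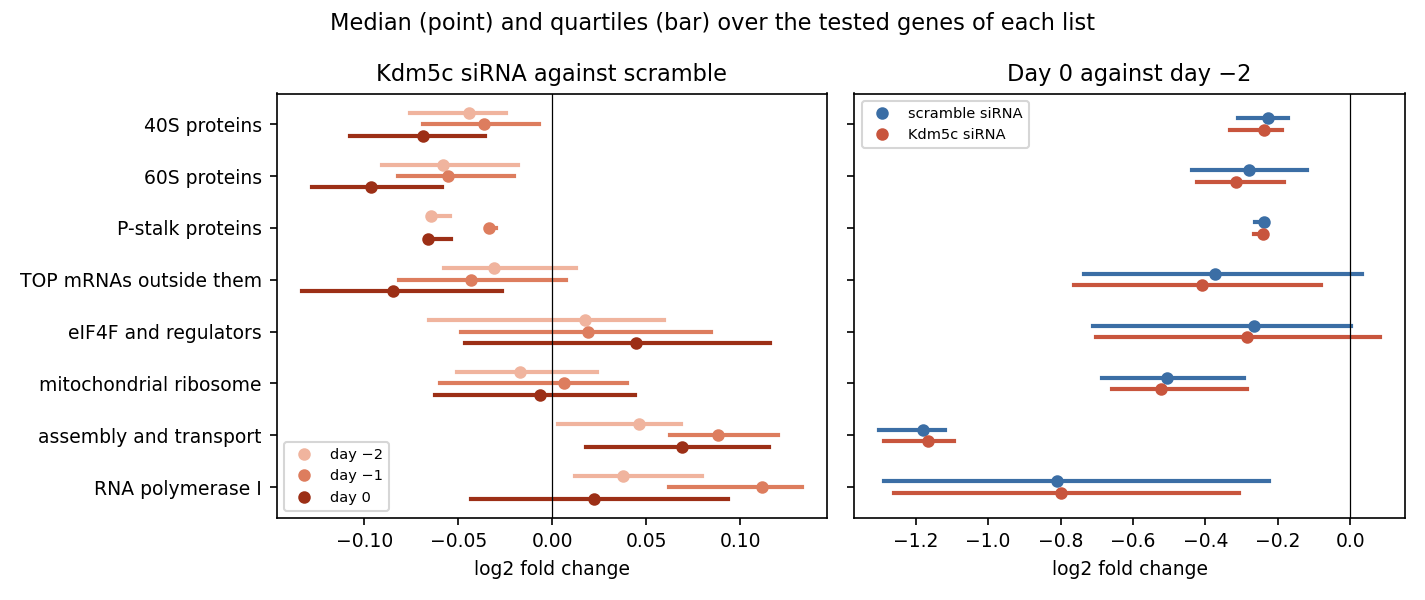
Median (point) and quartiles (bar) of the log2 fold change (x axis) over the tested genes of each list (y axis), for Kdm5c siRNA against scramble on each day (left) and for day 0 against day −2 under each siRNA (right). The medians of the subunit lists and of the other TOP mRNAs lie below 0 in both panels. The bars of the TOP list cross 0 on day −2, on day −1 and under scramble with time. They lie wholly below 0 on day 0 (left) and under Kdm5c siRNA with time (right). The medians of the assembly list lie above 0 on the left and at −1.18 under scramble on the right.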

How the data were processed

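All 30 libraries in 6 groups were used. The authors aligned reads with STAR 2.7.2a to GRCm38 and used edgeR 3.26.8, per the submitters' processing notes; the read counter and its annotation, and how it treated reads with several matches, were not given in the sources used here. Whole-number counts of 12016 genes, without further scaling, filled the authors' deposited count table. The deposited CPM table held 55573 genes, and whole reads recovered from it equalled the counts. Members were found by symbol, with Rps3a1 added although its suffix was outside the written pattern. The members and lists were chosen with earlier results of these data known.

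Counts were fitted with edgeR 4.0.16 in R 4.3.3 (quasi-likelihood test, two-sided, TMM scaling, 6 group means, 24 residual degrees of freedom), and p-values were adjusted by Benjamini-Hochberg over all 12016 genes. The code was tested on simulated data. Per contrast, up to 10 called members in each direction were named, with the largest change and at least 2 CPM. For differences of effects the limit was 5. The stalk, fusion and paralog genes and the highest and lowest per length were also named. A rule of up to 3 called genes of each related list, by smallest adjusted p, was followed only in part. No mitochondrial ribosomal protein gene was named. Assembly and RNA polymerase I genes were not named for the siRNA effects. Other genes were named after their values were seen. Results on some items are not reported here; counts and medians over lists include all tested genes. Representative transcripts came from GENCODE M21 and promoters from RefSeq. Alternatives were DESeq2 1.42.0, limma 3.58.1 on log2(CPM + 0.5), other scalings, other filters on low counts, a replicate block, only the libraries compared, and each library left out. The floor for a gene without reads was 3 counts.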

Additional observations from a re-analysis of the deposited data

Results flagged for a closer look

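Outlying libraries were looked for in the read share and in the 35 members named by the size of their change. Other genes named in the text, such as Rplp0 and Rps6, were not examined. Among the 216 groups of 5 libraries examined, 14 held a library far from the other 4 (6.48%). Chance gives about 1 in 20. Kdm5c siRNA replicate 2 of day 0 was the highest of its group in 4 of them: the read share of the members was 2.693% beside 2.555 to 2.588% in the others, and Rpl23, Rpl3 and Rpl36 were at 374.467, 369.836 and 223.535 CPM. Scramble replicate 1 of day −2 was the highest for Rpl13a (43.873 CPM), Rps14 (332.891 CPM) and Rps21 (349.672 CPM). Scramble replicate 1 of day −1 was the lowest for Rps14 (271.519 CPM). Scramble replicate 1 of day 0 was the highest for Rps2 (567.995 CPM) and the lowest for Rps21 (268.04 CPM). Scramble replicate 4 of day −1 was the highest for Rpl28 (450.154 CPM) and Rpl7a (521.451 CPM). The others were Rps27 in Kdm5c siRNA replicate 4 of day −1 (277.18 CPM, highest) and Rps9 in scramble replicate 5 of day 0 (585.823 CPM, highest).

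The siRNA effect differed between day 0 and day −2 in 11 members by the test of the difference itself (edgeR, adjusted over 12016 genes). The differences on the log2 scale included −0.1895 for Rpl17, −0.1635 for Rps26, −0.1357 for Rpl10a, −0.1287 for Rpl23a, −0.1243 for Rpl19, −0.1208 for Rpl28, −0.1117 for Rpl5, −0.0915 for Rpl4, −0.0855 for Rpl7a and −0.0835 for Rpl6.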

How the results depend on the processing

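Counts of called members stayed within 1.5 times their reported values, and no direction reversed, under 10 other settings (other scalings, filters, DESeq2, limma, a replicate block, only the libraries compared): 21 to 32 on day −2, 22 to 28 on day −1, 44 to 50 on day 0 and 10 to 12 for the difference of effects. Leaving out 1 library gave 12 to 38, 19 to 31, 33 to 52 and 8 to 13. For the time comparisons under scramble it gave 67 to 71 (day −1 against day −2), 48 to 54 (day 0 against day −1) and 74 to 75 (day 0 against day −2), and 72 to 77 under Kdm5c siRNA. Of 89 results on single members, calls were lost for 3 without a filter (Rpl23a, Rpl28 and Rpl17 from day −2 to day 0 under scramble), 3 with only the libraries compared (Rpl39 and Rpl35a on day −2, Rpl13 on day 0) and 1 with the replicate block (Rpl35a on day −2), and in 18 of 940 results with 1 library left out. With the replicate number as a block the counts were 24, 22 and 44 for the siRNA effects and 12 for the difference. The numbers gave no clear pairing over all groups: of 75 same-numbered pairs 8 had deviations correlated above 0.1 and 14 matched their own number best. Most of these pairs join different days, so the counts cannot exclude pairing within a day. Between the siRNAs of a day, replicate 1 had 0.2144 on day −2 and 0.2986 on day 0. The other same-day pairs ran from −0.225 to 0.1406. Small changes near the threshold depend on the spread of 5 libraries, and genes with few reads, such as Rps10, had wider errors (SE of at least 0.071).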
